A study of Mus musculus with 16 samples.

Results

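The effect of a Foxp2 virus on striatal RNA was measured over both genotypes of a mouse study, 8 mice given the Foxp2 virus against 8 given the control virus, with genotype held in the model. All 16 libraries of the series entered the comparison, chosen by the virus named in the labels, and 13563 of 24421 gene symbols had enough reads to be tested. The Foxp2-virus mice were 4 BACHD mice (BACHD+Foxp2) and 4 of control genotype (Con+Foxp2), and the control-virus mice were 4 BACHD mice (BACHD+Con) and 4 of control genotype (Con+Con). All were 13 months old when the striatum was taken. Each library is called a mouse here, although the labels do not state that every library came from its own animal, so the p-values measure the spread between these samples. BACHD mice model Huntington disease through a transgene, carried on a bacterial artificial chromosome, that encodes mutant human huntingtin. The kind of virus, its promoter, the species of the delivered Foxp2 sequence, the volume of striatum reached and the time from injection to harvest are not stated in the labels.

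Foxp2 is a forkhead transcription factor, a protein that binds DNA through a winged-helix domain and acts mostly as a repressor, alone or in pairs with its relatives Foxp1 and Foxp4. In the striatum it is made by the projection neurons, the GABA-releasing cells that carry the output of the nucleus through the direct and the indirect pathway. Mutations of the human gene cause a speech and language disorder, and mice with reduced Foxp2 show altered corticostriatal synapses and motor learning.

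Libraries held 2660395 to 3669748 reads assigned to genes, with a median of 3048927 in Foxp2-virus mice and of 2995255.5 in control-virus mice. Values are CPM, read counts scaled to the library size, and 3 reads in a library correspond to 0.819 to 1.16 CPM. For a gene at 0 in all control-virus mice, the floor of a ratio was 3 reads summed over the 8 libraries. CPM is not divided by gene length, so levels are compared between mice and not between genes. A log2 fold change is Foxp2 virus over control virus, and its adjusted p comes from the quasi-likelihood test of edgeR, adjusted by Benjamini and Hochberg's method over the 13563 genes. The SE given with it is derived from that test, as the absolute log2 fold change divided by the square root of the F statistic. The labels give no batch, and the library numbers in the titles run in blocks by group, so handling order and group cannot be told apart. Markers of neighbouring cortex varied widely between libraries, and the 3 libraries lowest in them (BACHD+Con mouse 3, Con+Con mouse 4 and BACHD+Con mouse 2) were all from control-virus mice.

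Foxp2 itself (chromosome 6, 14901349 to 15441977, GRCm38) was at 1291, 2714 and 4389 CPM (lowest, median and highest of 8 mice) under the Foxp2 virus, against 87.3, 117 and 153 CPM under the control virus. Every Foxp2-virus mouse lay above every control-virus mouse. The log2 fold change was 4.42 (SE 0.20, 21.4-fold, adjusted p = 2.22e-13), and a permutation of the virus labels within genotype gave p = 0.000408, the smallest that its 4900 arrangements allow. The 8 Foxp2-virus mice did not form a single level: the BACHD+Foxp2 mice were at 1291 to 1929 CPM and the Con+Foxp2 mice at 3500 to 4389 CPM, so the common effect averages over different doses of Foxp2 RNA. Reads per gene do not separate delivered from endogenous transcripts. The relatives did not pass the test: Foxp1 had a log2 fold change of -0.24 (adjusted p = 0.356) and Foxp4 of 0.16 (adjusted p = 0.796). Htt, the mouse huntingtin gene, had a log2 fold change of -0.15 (adjusted p = 0.55). Its mean level was 553 CPM in BACHD+Foxp2 and 607.5 CPM in BACHD+Con, against 256 CPM in Con+Foxp2 and 286 CPM in Con+Con. Whether reads of the human transgene were counted under Htt was not tested.

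Over both genotypes 149 of 13563 genes passed an adjusted p of 0.05, 1.1% of those tested, of which 54 rose (0.398%) and 95 fell (0.7%). The counts of list members below are to be read beside these shares, and no list was tested as a set. Without adjustment, p was under 0.05 for 1478 genes, and 678 would be expected by chance. Rises included transcription factors with almost no reads under the control virus, astrocyte and class I antigen presentation genes and beta protocadherins. Falls included the collagen IV chains Col4a1 and Col4a2, the phosphodiesterase Pde2a, diacylglycerol kinases, calcium channel subunits and 3 genes of cholinergic neurons. The falls were smaller than the rises, with a median absolute log2 fold change of 0.61 against 0.86 for the rises and 0.15 over all genes tested. Reads were more numerous for the falls, at a median log2 CPM of 6.76, than for the rises (4.78) or over all genes tested (4.75). A change of at least 2-fold was fitted for 22 of the rises and 14 of the falls. In 46 genes, 0.339% of those tested, the 8 Foxp2-virus mice all lay on the same side of the 8 control-virus mice, 23 above (0.17%) and 23 below (0.17%). Of the called genes 20 were wholly above, 22 were wholly below and 107 overlapped. The number of falls depended on a few control-virus libraries, with 55 when BACHD+Con mouse 3 was left out, 59 in the absence of Con+Con mouse 2 and 63 in that of Con+Con mouse 4. Without the 3 libraries lowest in cortical markers 68 genes were called, 62 of them among the 149, with 36 rises and 32 falls, and with the cortical level of each library as a covariate 56 rose and 53 fell, so the excess of falls was lost in both fits. In both, all 149 kept their direction, but they were chosen in these same libraries, so this is no independent check.

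**Figure D1:**
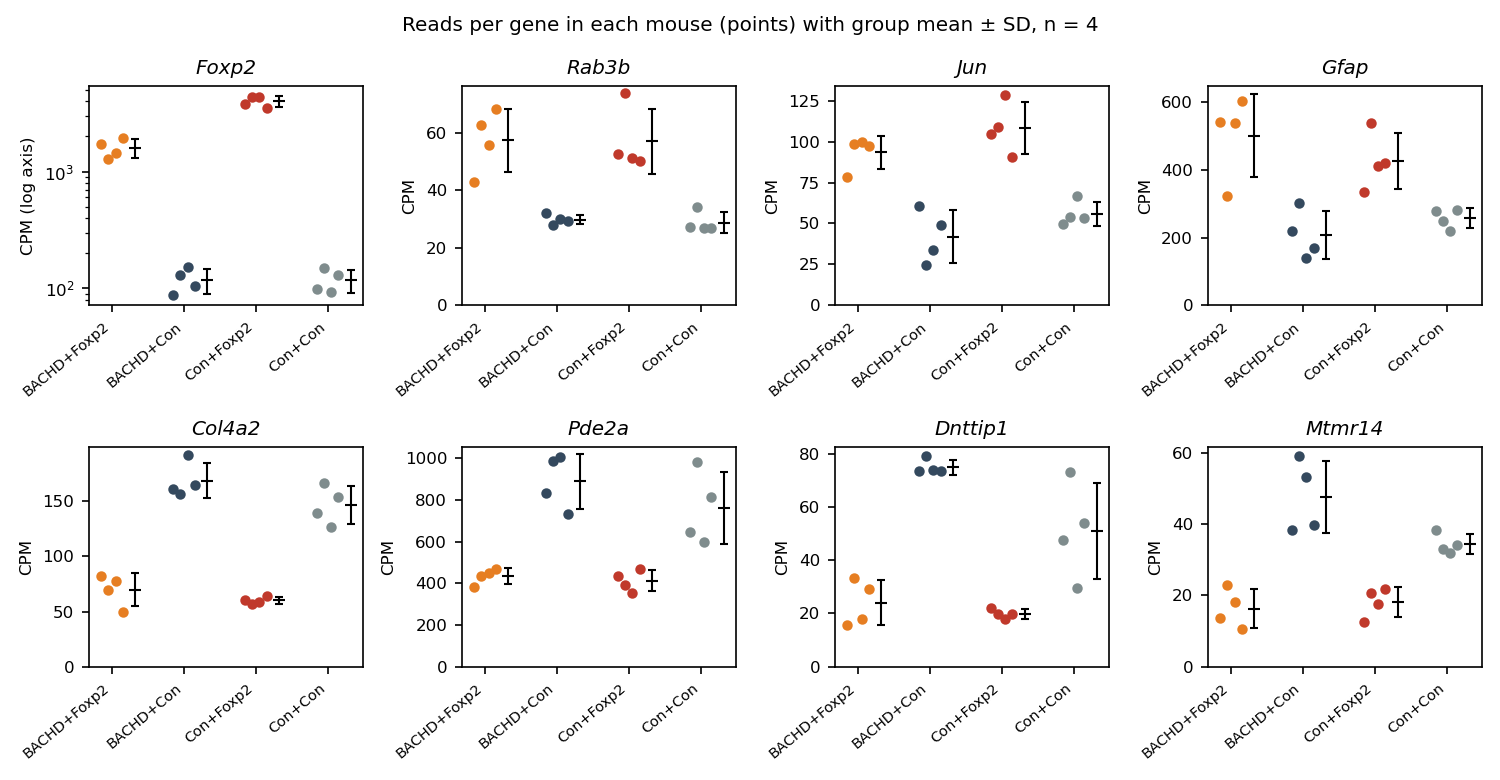
CPM of 8 genes in each mouse (points) by group, with mean and SD of 4 mice beside them; the Foxp2 axis is logarithmic and the others start at 0. Foxp2, Rab3b, Jun and Gfap were higher in every Foxp2-virus mouse than in any control-virus mouse, Col4a2, Pde2a and Mtmr14 were lower in every Foxp2-virus mouse, and Dnttip1 overlapped in 1 of 8.

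The largest fitted rises were of genes that were nearly silent under the control virus. Pou4f1, a POU homeobox factor of sensory and habenular neurons, was at 4.97, 6.47 and 19.3 CPM under the Foxp2 virus, against 0, 0.148 and 1.29 CPM under the control virus. The 8 Foxp2-virus mice were all above the control-virus mice, with 225 reads in sum against 9, a ratio of 24.1 (95% counting interval 12.5 to 53.4; adjusted p = 9.01e-05). Cdx2, which directs the development of the intestine, was at 2.25, 4.30 and 7.20 CPM, against 0, 0 and 0.991 CPM. Only BACHD+Con mouse 2 had any of the 3 control-virus reads of Cdx2, and the ratio of 106 reads to 3 was 34.1 (interval 11.4 to 168; adjusted p = 0.000703). Foxf1, a forkhead factor of developing mesenchyme, was at 0.366, 8.58 and 27.05 CPM, against 0, 0.494 and 2.06 CPM, with overlapping groups (log2 fold change 3.83, SE 0.58, adjusted p = 0.000448). Within the Foxp2-virus mice Foxf1 was at 1.90 ± 1.47 CPM in BACHD+Foxp2 and 19.1 ± 5.74 CPM in Con+Foxp2 (SD, n = 4 each), and the interaction did not pass (edgeR, adjusted p = 1).

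Of 40 developmental transcription factors listed, only 7 had enough reads to be tested, and a gene can pass that filter through the Foxp2-virus mice alone, so the 3 that rose are given without a count against the list. Pax7, a transcription factor of muscle stem cells, had 111 reads in Foxp2-virus mice and 5 in control-virus mice but did not pass (adjusted p = 0.24). Its level was 0 CPM in the BACHD+Foxp2 mice and 8.79 ± 3.47 CPM in the Con+Foxp2 mice (SD, n = 4 each). The 111 Foxp2-virus reads thus all came from mice of control genotype, and the 5 control-virus reads all came from BACHD mice. Onecut3, another homeobox factor, had 96 reads against 1, a ratio of 92.6 (interval 16.2 to 3696, adjusted p = 0.00126). It was at 0.273, 4.17 and 10.5 CPM, against 0, 0 and 0.295 CPM, with overlapping groups. Prss16, a serine protease best known from the thymus, had 76 reads in Foxp2-virus mice and 0 in control-virus mice (adjusted p = 0.00574). All 8 Foxp2-virus mice had reads, at 0.319, 3.27 and 6.55 CPM, so the lowest was under the level of 3 reads. With 3 reads summed over the 8 control-virus libraries as floor, the ratio was at least 24.4. A floor of 3 reads in each library would give a smaller bound. Abca12, a lipid transporter of the skin, had 79 reads against 3 (ratio 25.4, interval 8.38 to 126, adjusted p = 0.0349). It was at 0, 3.06 and 7.96 CPM, against 0, 0 and 1.03 CPM, with reads in 6 of 8 Foxp2-virus mice. Its call held in 4 of 16 fits that each left out 1 mouse, with an adjusted p of up to 0.154 (without BACHD+Foxp2 mouse 2). The call was also lost with limma voom (adjusted p = 0.108) and with the cortical covariate (0.151). Without the 3 libraries lowest in cortical markers the log2 fold change was 3.64 (adjusted p = 0.314). Counting intervals cover counting error and not the spread between mice.

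Other large rises started from low levels. Tex15, a germ-cell gene needed for meiotic recombination, was at 2.46, 10.3 and 21.9 CPM in Foxp2-virus mice, against 0, 1.02 and 4.42 CPM in control-virus mice (log2 fold change 2.76, SE 0.52, adjusted p = 0.00505). Piezo2, the mechanically gated channel of touch neurons, was at 2.32, 6.82 and 12.1 CPM, against 0, 1.28 and 3.09 CPM (log2 fold change 2.27, SE 0.50, adjusted p = 0.0194). In both genes 6 of 8 Foxp2-virus mice were above all control-virus mice. Jchain, the joining chain of polymeric antibodies, was at 5.12, 12.3 and 16.4 CPM, against 0, 0 and 8.37 CPM (log2 fold change 2.98, SE 0.68, adjusted p = 0.0245). The control-virus reads of Jchain lay almost wholly in Con+Con mouse 2 and Con+Con mouse 3, and its adjusted p was 0.0571 without BACHD+Con mouse 3 and 0.179 without the 3 libraries lowest in cortical markers (log2 fold change 2.23). Tex15 had a log2 fold change of 2.59 (adjusted p = 0.0627) without those 3 libraries and an adjusted p of 0.144 with limma voom. Other markers of B and plasma cells stayed near 0, with 11 reads in Foxp2-virus and 0 in control-virus mice for Cd79a, 16 and 3 for Mzb1, and 0 in both for Ms4a1.

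Other rises with a low p were of genes with reads in every control-virus mouse. Col23a1, a membrane-spanning collagen, was at 18.2, 60.4 and 156 CPM in Foxp2-virus mice, against 2.60, 8.16 and 18.0 CPM in control-virus mice (log2 fold change 2.61, SE 0.33, adjusted p = 7.56e-05). Both groups met at about 18 CPM without overlapping. Rab3b (chromosome 4, 108879063 to 108943324), a GTPase of synaptic vesicles, was at 42.8, 54.3 and 73.95 CPM, against 26.8, 28.7 and 34.1 CPM. All 8 Foxp2-virus mice were above the control-virus mice for Rab3b (log2 fold change 0.97, adjusted p = 9.01e-05, SE 0.12), with 0.95 in BACHD mice and 0.99 in control mice. Jun (chromosome 4, 95049034 to 95052222), a subunit of the AP-1 transcription factor, was at 78.3, 99.15 and 129 CPM, against 24.4, 51.6 and 66.5 CPM, again without overlap (log2 fold change 1.05, SE 0.14, adjusted p = 0.000137). Jun was the sole member called among 18 immediate early genes tested, whose median log2 fold change was 0.02. Fos had a log2 fold change of 0.49 (adjusted p = 0.563), Egr1 of -0.02 (adjusted p = 0.976) and Arc of 0.02 (adjusted p = 0.983).

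Cell surface proteins were also among the rises. Cdh22, a classical cadherin, was at 36.6, 44.3 and 52.2 CPM in Foxp2-virus mice, against 21.5, 28.7 and 35.3 CPM in control-virus mice, with no overlap (log2 fold change 0.62, SE 0.13, adjusted p = 0.0152). Of the 22 beta protocadherins, cell adhesion proteins whose combinations label single neurons, 6 rose with edgeR (Pcdhb3, Pcdhb8, Pcdhb11, Pcdhb14, Pcdhb17 and Pcdhb18; DESeq2 added Pcdhb4), 0 fell and 21 had a fold change above 0. Their median log2 fold change was 0.52, beside -0.00215 over all genes tested, of which 0.398% rose. Their summed level was 351 to 475 CPM in Foxp2-virus mice and 224 to 345.5 CPM in control-virus mice, without overlap. Pcdhb18 had the lowest p, at 24.2, 27.4 and 40.1 CPM against 5.78, 12.7 and 17.9 CPM (log2 fold change 1.21, SE 0.21, adjusted p = 0.0019). Pcdhb17 was at 25.4, 36.4 and 42.1 CPM, against 14.1, 20.6 and 25.1 CPM (log2 fold change 0.77, SE 0.15, adjusted p = 0.00695). In both genes the groups did not overlap.

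Several of the beta protocadherin calls were near the threshold. Without the 3 libraries lowest in cortical markers, Pcdhb17 had a log2 fold change of 0.73 (adjusted p = 0.073), Pcdhb11 of 0.97 (0.117) and Pcdhb14 of 0.69 (0.281). The 3 members still called there were Pcdhb3, Pcdhb8 and Pcdhb18. With the cortical level as a covariate 4 members were called, and Pcdhb11 (adjusted p = 0.102) and Pcdhb14 (0.0503) were not. Pcdhb8 lost its call without Con+Con mouse 2, Con+Foxp2 mouse 4 or BACHD+Foxp2 mouse 1 (adjusted p up to 0.0633), and Pcdhb11 without Con+Con mouse 4, Con+Foxp2 mouse 3 or BACHD+Foxp2 mouse 3 (adjusted p up to 0.07). Pcdhb3 and Pcdhb14 kept their calls in 4 and 7 of the 16 fits that left out 1 mouse. These genes are near-identical copies side by side on chromosome 18, and reads that align to several copies were not counted, so the share of each copy is uncertain. Pcdha1 also rose (log2 fold change 2.85, SE 0.60, adjusted p = 0.0139), but its annotated span, 36930184 to 37187661 on the same chromosome, holds the other alpha protocadherins, and its reads cannot be assigned to it with certainty. The members share their location: 9 of the 11 pairs of called genes within 100 kb of each other were beta protocadherins, and 10 of the 11 pairs changed in the same direction.

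Some astrocyte and immune genes rose. Gfap (chromosome 11, 102887336 to 102900912), the intermediate filament of astrocytes that increases in reactive astrocytes, was at 323, 480 and 604 CPM in Foxp2-virus mice, against 139, 234 and 303 CPM in control-virus mice. Every Foxp2-virus mouse was above every control-virus mouse (log2 fold change 1.00, SE 0.15, adjusted p = 0.000393). Of 14 astrocyte genes tested 4 rose, beside 0.398% of all genes tested. Besides Gfap, Aqp4, the water channel of astrocyte endfeet, rose (log2 fold change 0.72, SE 0.14, adjusted p = 0.00695). So did Kcnj10, the inward rectifier potassium channel (0.46, SE 0.10, adjusted p = 0.0161), and Slc1a3, a glutamate transporter (0.30, SE 0.06, adjusted p = 0.0121). Slc1a3 was at 517, 570.5 and 646.5 CPM against 437, 469 and 513.5 CPM, without overlap. The astrocyte genes did not move as a block: Slc1a2, the major astrocyte glutamate transporter, had a log2 fold change of 0.03 (adjusted p = 0.894), and the nuclear factor Sox9 of -0.03 (adjusted p = 0.958). The list's median was 0.24, and its summed level was 7951 to 9720 CPM in Foxp2-virus mice and 7379 to 9485 CPM in control-virus mice. Among 8 of 13 reactive astrocyte genes with enough reads, Gfap alone passed, and the median of the 8 was 0.40. A gene can pass the filter on low counts through the Foxp2-virus mice alone, which can favour an upward median. Without the 3 libraries lowest in cortical markers Slc1a3 had a log2 fold change of 0.32 (adjusted p = 0.0543).

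Of the 18 genes of microglia and other myeloid cells, 2 rose with edgeR, beside 0.398% of all genes tested. DESeq2 added C1qc. Lyz2, a lysozyme of myeloid cells, was at 6.06, 14.3 and 21.3 CPM in Foxp2-virus mice, against 0.672, 2.98 and 7.08 CPM in control-virus mice (log2 fold change 2.07, SE 0.34, adjusted p = 0.00132). Ctss, the lysosomal protease cathepsin S, was at 63.8, 84.2 and 100.5 CPM, against 42.6, 51.6 and 66.2 CPM (log2 fold change 0.65, SE 0.12, adjusted p = 0.00269). In each gene the groups overlapped, with 6 and 7 of 8 Foxp2-virus mice above all control-virus mice, and Lyz2 reads may be shared with its close copy Lyz1. The homeostatic genes P2ry12 (log2 fold change 0.03, adjusted p = 0.983) and Tmem119 (0.07, adjusted p = 0.948) did not pass. The fold change was above 0 in 17 of 18 members, with a median of 0.29, and the summed level was 431 to 504 CPM against 325 to 416 CPM, without overlap. In these bulk samples, more cells of a type and more RNA per cell cannot be told apart, nor can fewer cells and less RNA per cell in the results that follow.

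Of the genes of antigen presentation, 11 of 15 had enough reads to be tested. Of these 3 rose and 0 fell, beside 0.398% and 0.7% of all genes tested, and the median log2 fold change was 0.86. A gene can pass the filter on low counts through the Foxp2-virus mice alone, which can favour an upward median in lists with few reads. B2m, the light chain of class I molecules, was at 47.8, 62.6 and 84.4 CPM in Foxp2-virus mice, against 29.8, 41.2 and 45.6 CPM in control-virus mice, without overlap (log2 fold change 0.75, SE 0.14, adjusted p = 0.00473). H2-D1, a class I heavy chain, was at 15.8, 22.2 and 29.0 CPM, against 6.11, 11.8 and 16.5 CPM (log2 fold change 0.97, SE 0.20, adjusted p = 0.0132). H2-K1, another heavy chain, was at 12.1, 19.9 and 24.1 CPM, against 3.35, 6.20 and 16.2 CPM (log2 fold change 1.14, SE 0.28, adjusted p = 0.046). The summed level of the list was 175 to 204 CPM in Foxp2-virus mice and 102 to 155 CPM in control-virus mice, which did not overlap. H2-K1 kept its call in 4 of 16 fits that left out 1 mouse (adjusted p up to 0.109, without Con+Con mouse 2), H2-D1 lost it without the 3 libraries lowest in cortical markers (log2 fold change 0.92, adjusted p = 0.124), and the heavy chains are similar enough in sequence to share reads. Of 20 interferon response genes 13 were tested, and the same limit of the filter applies. Of the 13, 0 passed with edgeR, 4 had an unadjusted p under 0.05 and DESeq2 called 2, Oasl2 and Gbp3. The median log2 fold change of the 13 was 0.47.

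**Figure D2:**
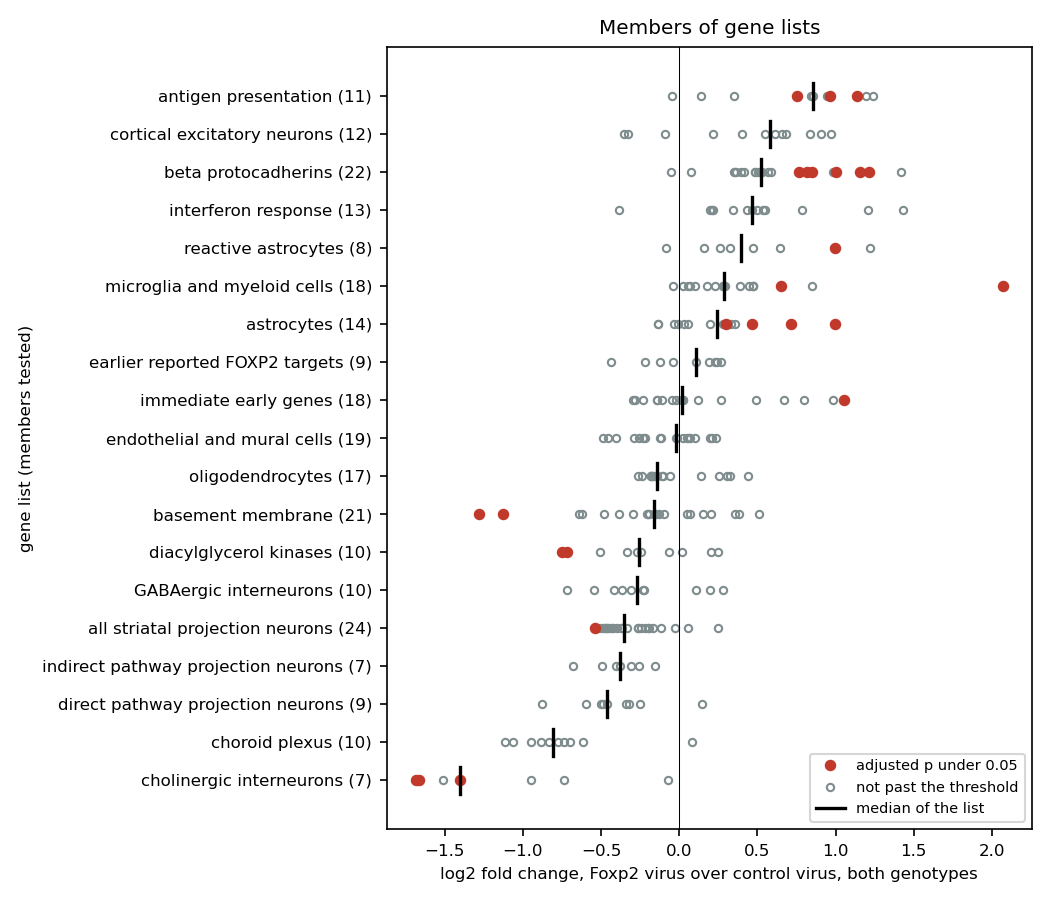
Log2 fold change, Foxp2 virus over control virus over both genotypes, of each tested member (points) of 19 gene lists, with the list's median (bar) and the number tested in brackets; filled points passed an adjusted p of 0.05. The medians run from 0.86 for antigen presentation to -1.40 for cholinergic interneurons, and most members of the lists did not pass.

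The fall with the lowest p was that of a collagen IV gene. Col4a2 (chromosome 8, 11312805 to 11449287), whose product forms the network of the vascular basement membrane together with that of Col4a1, was at 49.1, 62.2 and 82.3 CPM in Foxp2-virus mice, against 126, 159 and 192 CPM in control-virus mice. All 8 Foxp2-virus mice were below all control-virus mice (log2 fold change -1.28, SE 0.10, 2.43-fold lower, adjusted p = 1.80e-08), the lowest p after Foxp2. Col4a1 was at 30.4, 36.0 and 78.9 CPM, against 73.7, 86.35 and 121 CPM, with 7 of 8 Foxp2-virus mice below (log2 fold change -1.13, SE 0.16, adjusted p = 0.000257). The other collagen IV genes did not pass, nor did 19 of the 21 basement membrane genes tested, whose median log2 fold change was -0.16. Lamb1, a laminin chain, had -0.38 (adjusted p = 0.291), Hspg2, the perlecan core protein, -0.21 (adjusted p = 0.815), and Sparc, a collagen-binding protein of the matrix, 0.38 (adjusted p = 0.236). Of 39 collagen chains tested 3 fell and 1 rose with edgeR (DESeq2 added Col17a1), the others being Col6a1, a microfibrillar collagen (log2 fold change -0.64, SE 0.11, adjusted p = 0.00269), and Col23a1, given above. Endothelial and mural cell markers, 19 tested, had a median log2 fold change of -0.02 and a summed level of 447 to 584 CPM in Foxp2-virus mice and 463 to 596 CPM in control-virus mice. None of them passed with edgeR, 0 had an unadjusted p under 0.05 and DESeq2 called 0.

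Col4a1 and Col4a2 lie head to head on chromosome 8 and are transcribed away from each other, from annotated starts at 11312826 and 11312805 (GRCm38), so their promoter windows overlap. The window of Col4a2 from RefSeq, 250 bases before to 50 after its start on GRCm38.p6 (chr8:11312555-11312854, plus strand), is shown because both genes of the pair fell. Capitals mark the 78 bases that it shares with the window of Col4a1.
Col4a2: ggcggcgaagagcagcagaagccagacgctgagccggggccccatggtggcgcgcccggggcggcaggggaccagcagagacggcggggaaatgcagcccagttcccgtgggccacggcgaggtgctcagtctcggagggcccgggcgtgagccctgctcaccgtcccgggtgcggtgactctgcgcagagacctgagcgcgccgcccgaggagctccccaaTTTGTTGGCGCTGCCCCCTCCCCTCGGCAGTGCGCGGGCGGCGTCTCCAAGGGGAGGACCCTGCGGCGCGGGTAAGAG

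Enzymes that break down second messengers were among the falls. Pde2a (chromosome 7, 101421691 to 101512827), a phosphodiesterase of cyclic AMP and cyclic GMP that is abundant in striatum and cortex, was at 354, 437 and 470 CPM in Foxp2-virus mice, against 600, 824 and 1005 CPM in control-virus mice. All 8 Foxp2-virus mice were below (log2 fold change -0.96, SE 0.10, adjusted p = 2.49e-06). Of 19 phosphodiesterase genes tested 2 fell, the other being Pde8b, a cyclic AMP enzyme (log2 fold change -0.37, SE 0.09, adjusted p = 0.046), whose call held in 2 of 16 fits that left out 1 mouse (adjusted p up to 0.131, without Con+Con mouse 2) and was lost without the 3 libraries lowest in cortical markers (log2 fold change -0.36, adjusted p = 0.289). Pde10a, the phosphodiesterase typical of projection neurons, was at 885, 1015 and 1294 CPM, against 897.5, 1256 and 1966 CPM, with overlapping groups (log2 fold change -0.38, adjusted p = 0.212), and passed only without Con+Con mouse 3 (adjusted p = 0.0498). Dgki, a diacylglycerol kinase, was at 164, 177 and 205 CPM, against 237, 312 and 362 CPM, without overlap (log2 fold change -0.75, SE 0.09, adjusted p = 6.22e-05). Dgkz, another of these kinases, which remove diacylglycerol after receptor activation, fell by 0.72 on the log2 scale (SE 0.11, adjusted p = 0.000555). They were 2 of 10 diacylglycerol kinases tested, while 0.7% of all genes tested fell. Dgkb, the kinase best known from striatum, had a log2 fold change of -0.27 (adjusted p = 0.6).

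Among the calcium channel genes 3 fell and 1 rose. Cacna2d3, an auxiliary alpha2delta subunit that carries channels to the membrane, was at 192, 227 and 292 CPM in Foxp2-virus mice, against 280, 421 and 526 CPM in control-virus mice, with 7 of 8 below (log2 fold change -0.84, SE 0.12, adjusted p = 0.000206). Cacna2d2, a second such subunit, fell by 0.75 on the log2 scale (SE 0.14, adjusted p = 0.00309), and Cacna2d1 had 0.06 (adjusted p = 0.919). The T-type channels differed in sign: Cacna1g was at 94.0, 128 and 175 CPM, against 21.8, 61.5 and 113 CPM (log2 fold change 1.05, SE 0.19, adjusted p = 0.00375), whereas Cacna1h had -0.50 (SE 0.12, adjusted p = 0.0337). Cacna1h kept its call in 6 of 16 fits that left out 1 mouse (adjusted p up to 0.105, without Con+Con mouse 2; 0.492, with a log2 fold change of -0.33, without the 3 libraries lowest in cortical markers). These 4 were the edgeR calls among 24 voltage-gated calcium and sodium channel genes tested, beside 1.1% of all genes tested. DESeq2 added Scn2b, and the list's median log2 fold change was -0.06.

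At the synapse, Gabrd, the delta subunit of extrasynaptic GABA receptors, fell by 0.61 on the log2 scale (SE 0.14, adjusted p = 0.0225), as 1 of 15 GABA receptor genes tested. Syt2, a fast calcium sensor of vesicle release, fell by 0.65 (SE 0.16, adjusted p = 0.0412), and with Rab3b it was 1 of 2 called among 19 synaptotagmin and Rab3 genes. Gabrd kept its call in 9 of 16 fits that left out 1 mouse (adjusted p up to 0.0692, without Con+Con mouse 2) and Syt2 in 6 of 16 (up to 0.104, without Con+Foxp2 mouse 3). Without the 3 libraries lowest in cortical markers, Gabrd had a log2 fold change of -0.48 (adjusted p = 0.324) and Syt2 of -0.51 (adjusted p = 0.213). Among 24 glutamate receptor genes 0 passed with edgeR, 2 had an unadjusted p under 0.05 and DESeq2 called 0.

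Further falls with low p were of genes with varied roles. Dnttip1, which assembles with histone deacetylases, was at 15.7, 19.6 and 33.4 CPM in Foxp2-virus mice, against 29.6, 73.45 and 79.3 CPM in control-virus mice, with 7 of 8 below (log2 fold change -1.50, SE 0.17, adjusted p = 1.59e-05). Map2k5, the kinase that activates ERK5, was at 29.0, 33.5 and 49.4 CPM, against 55.9, 71.0 and 94.9 CPM, without overlap (log2 fold change -1.01, SE 0.14, adjusted p = 0.000164). Gtf2i, a transcription factor deleted in Williams syndrome in humans, was at 294, 315 and 334 CPM, against 348, 463.5 and 550 CPM, without overlap (log2 fold change -0.56, SE 0.08, adjusted p = 0.000164). Mtmr14, a phosphoinositide phosphatase, was at 10.5, 17.9 and 22.9 CPM, against 31.8, 38.4 and 59.1 CPM, without overlap (log2 fold change -1.23, SE 0.18, adjusted p = 0.000257). Among the largest falls were also Hook2, an adaptor between cargo and microtubule motors (log2 fold change -1.10, adjusted p = 0.00578), Lmbr1l, a membrane protein (-1.67, adjusted p = 0.0194), and the noncoding RNA Snhg4 (-1.19, adjusted p = 0.0326). Lmbr1l lost its call without Con+Con mouse 2 (adjusted p = 0.0602) or BACHD+Con mouse 3 (0.0541), and Snhg4 kept it in 7 of 16 fits that left out 1 mouse (up to 0.109, without Con+Con mouse 2). Without the 3 libraries lowest in cortical markers Lmbr1l had a log2 fold change of -1.45 (adjusted p = 0.234) and Snhg4 of -1.21 (adjusted p = 0.217).

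Other called genes, chosen after their values were seen, include enzymes, lysosomal proteins and RNA-processing factors. Aldh1a1, which makes retinoic acid, was at 20.95, 32.3 and 41.3 CPM in Foxp2-virus mice, against 7.39, 11.6 and 21.5 CPM in control-virus mice (log2 fold change 1.33, SE 0.21, adjusted p = 0.000673). Ccnd1, cyclin D1, rose by 0.82 on the log2 scale (adjusted p = 0.016) and Igfbp5, an insulin-like growth factor binding protein, by 0.59 (adjusted p = 0.00642). Tpcn1, a cation channel of endosomes and lysosomes, was at 44.8, 52.1 and 69.7 CPM, against 81.0, 90.55 and 114 CPM, without overlap (log2 fold change -0.79, adjusted p = 0.000179). Sidt2, a lysosomal membrane protein, was at 37.6, 52.4 and 60.35 CPM, against 76.2, 87.7 and 121 CPM, also without overlap (log2 fold change -0.87, adjusted p = 0.000179). Parn, a poly(A)-specific ribonuclease, fell by 0.91 (adjusted p = 0.000393), and Hip1r, a clathrin and actin linker related to huntingtin interacting protein, by 0.51 (adjusted p = 0.00216). These 7 genes were called in all 16 fits that left out 1 mouse, and Igfbp5 was not called without the 3 libraries lowest in cortical markers (log2 fold change 0.49, adjusted p = 0.0706).

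**Figure D3:**
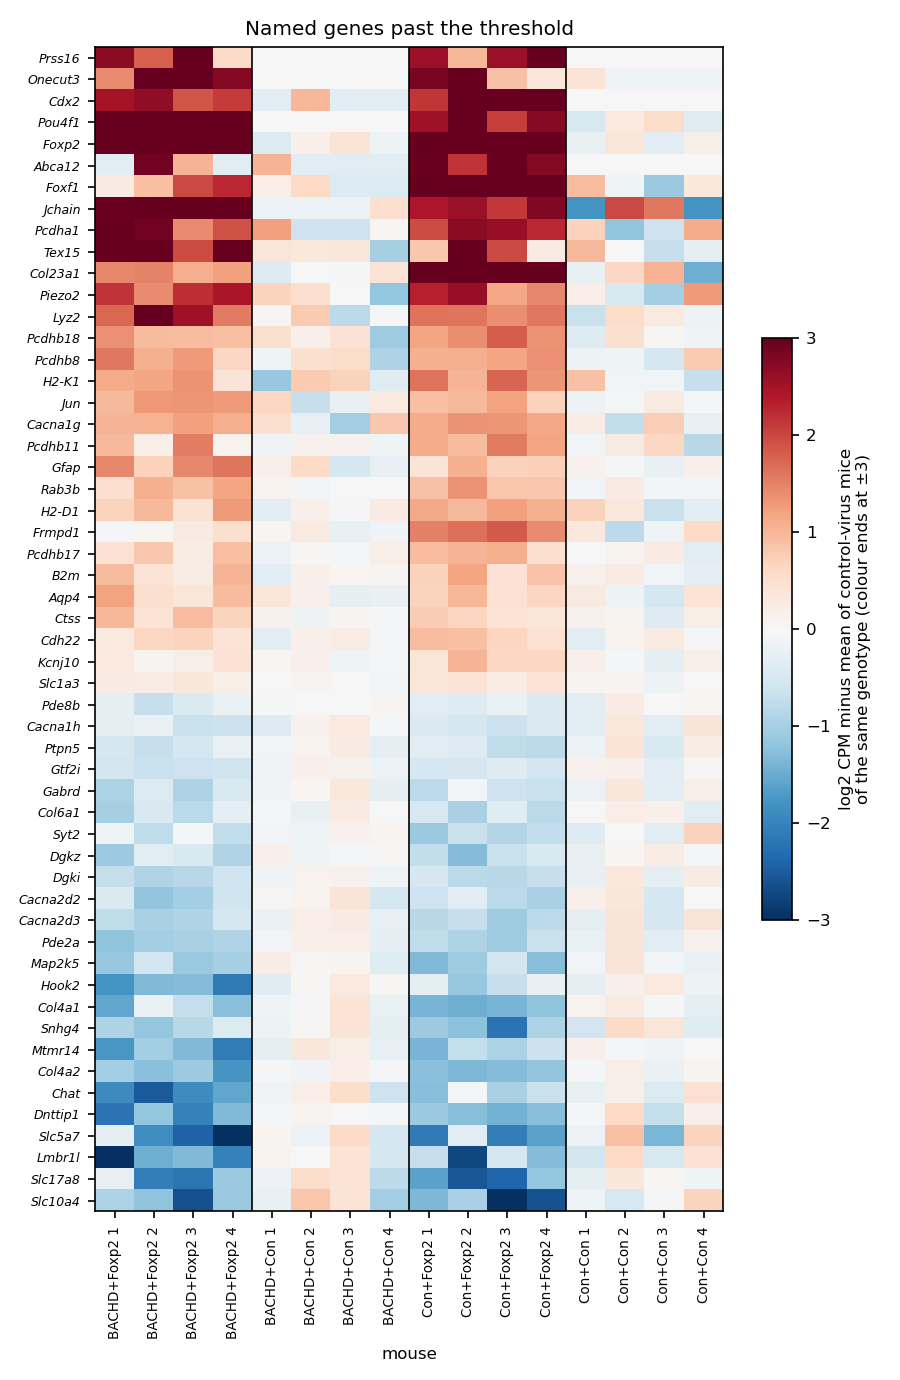
Log2 CPM of the named genes past the threshold that are reported here (rows, ordered by fold change) in each of 16 mice (columns, by group), after subtraction of the mean of the control-virus mice of the same genotype; the colours end at ±3. Foxf1, Col23a1 and Frmpd1 are paler in BACHD+Foxp2 than in Con+Foxp2 mice, while Rab3b, Col4a2 and Pde2a have similar shades in both.

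The promoters of the called genes were searched for the core forkhead sequence TGTTTAC or its reverse complement GTAAACA, in RefSeq windows on GRCm38.p6 from 250 bases before to 50 after the start. A window was given for 34 of the 54 genes that rose and 71 of the 95 that fell. Shares are of genes with a window, and a gene counted once if any of its windows held the sequence. It was present for 1 gene that rose (2.94%), 5 that fell (7.04%) and 310 of the 10256 tested genes with a window (3.02%). The rise was Cdx2, and the falls were Mtmr14, Sidt2, Col6a1, Slc17a8 and Vars2. The variant TATTTAT was present for 2 of the rises, 1 of the falls and 3.56% of the tested genes with a window, and TGTTTAT for 0, 2 and 3.07%. A match is a description of the letters and not a bound site. The windows of Cdx2 (chr5:147307200-147307499, minus strand), of Mtmr14 (chr6:113237593-113237892, plus strand) and of Slc17a8 (chr10:89599766-89600065, minus strand, with 2 matches) are shown as the large rise and the large falls that hold it, with the matches in capitals. The Slc17a8 window lies inside the annotated span of the gene, 89574020 to 89621253, at an internal RefSeq start and not at the annotated one.
Cdx2: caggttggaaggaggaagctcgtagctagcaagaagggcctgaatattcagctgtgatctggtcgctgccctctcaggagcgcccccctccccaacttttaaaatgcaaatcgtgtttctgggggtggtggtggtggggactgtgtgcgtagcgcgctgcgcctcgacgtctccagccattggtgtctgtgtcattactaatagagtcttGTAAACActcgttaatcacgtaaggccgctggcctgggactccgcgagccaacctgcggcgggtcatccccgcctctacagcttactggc
Mtmr14: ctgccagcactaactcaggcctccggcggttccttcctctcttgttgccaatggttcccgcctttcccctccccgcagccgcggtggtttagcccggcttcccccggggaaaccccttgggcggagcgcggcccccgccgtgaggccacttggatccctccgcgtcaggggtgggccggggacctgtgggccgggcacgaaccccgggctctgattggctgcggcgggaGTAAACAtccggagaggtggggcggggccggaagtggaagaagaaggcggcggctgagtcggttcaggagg
Slc17a8: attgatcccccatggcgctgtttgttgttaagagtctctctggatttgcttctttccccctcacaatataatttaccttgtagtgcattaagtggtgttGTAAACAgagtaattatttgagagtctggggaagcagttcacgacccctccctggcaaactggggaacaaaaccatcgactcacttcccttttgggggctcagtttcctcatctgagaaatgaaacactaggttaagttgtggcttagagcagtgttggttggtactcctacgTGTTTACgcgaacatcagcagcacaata

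Of 7 genes tested for cholinergic interneurons, the large acetylcholine-releasing cells of the striatum, 3 fell with edgeR, beside 0.7% of all genes tested. DESeq2 added Slc18a3. Chat (chromosome 14, 32408203 to 32465989), the enzyme that makes acetylcholine, was at 2.62, 5.61 and 13.7 CPM in Foxp2-virus mice, against 10.6, 16.5 and 26.5 CPM in control-virus mice, with 7 of 8 below (log2 fold change -1.40, SE 0.29, adjusted p = 0.0114). Slc17a8, the vesicular glutamate transporter of these cells, was at 1.64, 3.08 and 9.88 CPM, against 6.55, 12.7 and 17.5 CPM (log2 fold change -1.68, SE 0.34, adjusted p = 0.0098). Slc5a7, the choline transporter, was at 0.957, 5.60 and 19.6 CPM, against 9.001, 23.0 and 45.7 CPM (log2 fold change -1.66, SE 0.39, adjusted p = 0.0308). Slc10a4, a vesicle protein of cholinergic cells that is not in the list, fell by 1.92 (SE 0.44, adjusted p = 0.0229). All 7 list members had a fold change below 0, with a median of -1.40. Ecel1, an endopeptidase, had -0.07 (adjusted p = 0.941) and Lhx8, a factor needed for the fate of these cells, -0.95 (adjusted p = 0.59). The summed level was 34.1 to 74.6 CPM in Foxp2-virus mice and 58.2 to 134 CPM in control-virus mice, which overlapped.

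Markers of cortical tissue also differed between libraries. Of 12 cortical excitatory neuron genes, which mark tissue outside the striatum, 9 had a fold change above 0 (median 0.58), and the summed level was 414 to 1232 CPM in Foxp2-virus mice and 196 to 1459 CPM in control-virus mice. None passed with edgeR, 2 had an unadjusted p under 0.05 and DESeq2 called 0, and Emx1 was at 0 in some libraries of each group. With the cortical level of each library as a covariate, the median of the cholinergic list was -1.04, Chat had an adjusted p of 0.0569, Slc5a7 of 0.115 and Slc10a4 of 0.118, while Slc17a8 kept its call (0.0431). Without the 3 libraries lowest in cortical markers the median was -1.06, and Chat (log2 fold change -1.06, adjusted p = 0.236), Slc17a8 (-1.52, 0.175), Slc5a7 (-1.45, 0.254) and Slc10a4 (-1.45, 0.484) did not pass. Slc5a7 kept its call in 8 and Slc10a4 in 12 of 16 fits that left out 1 mouse.

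**Figure D4:**
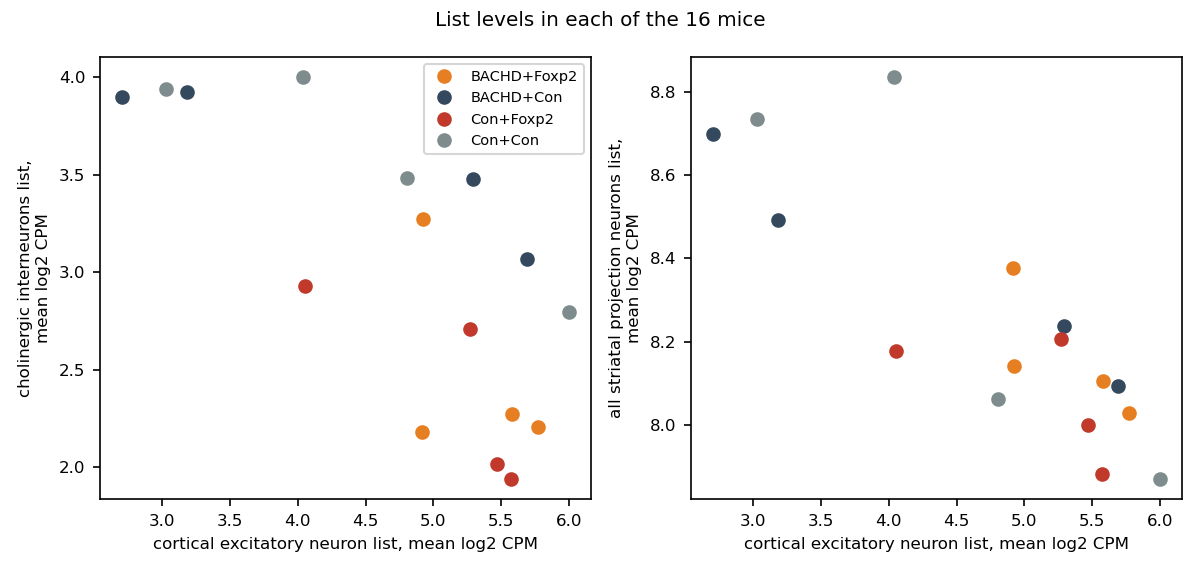
Mean log2 CPM of the cholinergic interneuron list (left) and of the list of all striatal projection neurons (right) against that of the cortical excitatory neuron list, 1 point per mouse, coloured by group. The libraries at 2.71, 3.03 and 3.18 on the cortical axis are from control-virus mice and lie high on the other axis in both plots.

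Projection neuron genes were lower in most cases without passing the test. Drd1, the dopamine receptor of the direct pathway, was at 79.9, 107 and 136 CPM in Foxp2-virus mice, against 91.6, 123 and 214 CPM in control-virus mice, with broad overlap (log2 fold change -0.32, adjusted p = 0.425). Drd2, the receptor of the indirect pathway, had -0.38 (adjusted p = 0.291), Adora2a, its adenosine receptor, -0.50 (adjusted p = 0.377), and Ppp1r1b, the dopamine signalling integrator DARPP-32, -0.34 (adjusted p = 0.355). The neuropeptide genes Tac1 and Penk had -0.50 (adjusted p = 0.278) and -0.31 (adjusted p = 0.459). Of 24 genes of all projection neurons, Ptpn5, the striatum-enriched phosphatase STEP, was the only member called with edgeR, at 270, 353 and 435 CPM against 346, 504 and 633 CPM (log2 fold change -0.54, SE 0.11, adjusted p = 0.0124), and 22 of 24 had a fold change below 0. DESeq2 called 3, adding Rasd2 and Adcy5. The median of that list was -0.35, with the cortical level as covariate -0.13 and without the 3 libraries lowest in cortical markers -0.18, where Ptpn5 had a log2 fold change of -0.43 (adjusted p = 0.219). The direct pathway list had 0 of 9 called with edgeR (5 at an unadjusted p under 0.05, 0 with DESeq2), a median of -0.46 and, with the covariate, of -0.23. The indirect pathway list had 0 of 7 called (3 and 0), a median of -0.38 and, with the covariate, of -0.14. GABAergic interneuron genes had 0 of 10 called (2 and 0) and a median of -0.27, with Pvalb, the calcium-binding protein of fast-spiking cells, at -0.72 (adjusted p = 0.352).

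Of 12 genes that earlier work linked to FOXP2, 9 were tested. Of these 0 passed with edgeR, 3 had an unadjusted p under 0.05 and DESeq2 called 1, Vldlr, a reelin receptor (log2 fold change -0.44, adjusted p = 0.107 with edgeR). Cntnap2, a neurexin-family adhesion protein repressed by FOXP2 in human cells, had -0.04 (adjusted p = 0.919), and Mef2c, a factor that limits corticostriatal synapse number in mice, 0.11 (adjusted p = 0.897). The list's median was 0.11, which turned to -0.03 with the cortical covariate and to -0.06 without the 3 libraries lowest in cortical markers. Oligodendrocyte genes had 0 of 17 called with edgeR (3 at an unadjusted p under 0.05, 0 with DESeq2) and a median of -0.15. Choroid plexus genes, another marker of the dissection, had 0 of 10 called (0 and 0), a median of -0.80, and a summed level of 407 to 7028 CPM in Foxp2-virus mice and 412 to 14080 CPM in control-virus mice, and without the 3 libraries the median was -0.04.

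Broad cell functions gave few calls, and with 1.1% of all genes called, lists of this size are expected to hold few. Over all genes, 1478 of 13563 had an unadjusted p under 0.05. Among 51 ribosomal protein genes 0 passed with edgeR (7 at an unadjusted p under 0.05, 1 with DESeq2, Rpl14), and among 74 genes of the respiratory chain and ATP synthase 0 passed (8 and 0). The fold change was below 0 in 35 ribosomal and 58 respiratory genes, and above 0 in 16 of each list. Likewise 0 passed among 36 proteasome subunits (2 and 0), 19 heat shock chaperones (2 and 0), 14 genes of the unfolded protein response (1 and 0) and 13 of the p53 response (1 and 0). Among neuronal lists 0 passed of 35 voltage-gated potassium channels (9 and 0) and 17 regulators of G protein signalling (4 and 0). Of 67 axon guidance genes 0 passed (13 at an unadjusted p under 0.05), and DESeq2 called 2, Plxna4 and Sema5a. In these neuronal lists the share with an unadjusted p under 0.05 was above that over all genes. The median log2 fold change of the lists in this paragraph lay between -0.14 for ribosomal proteins and 0.10 for the p53 response.

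The separate mice of each genotype allowed the effect to be set side by side. In BACHD mice 33 genes were called (0.243%), 12 rising and 21 falling, and in control mice 31 (0.229%), 19 rising and 12 falling, in a fit with a mean for each group. When the genotypes were fitted apart, so that no mouse was shared, 31 of 12883 genes were called in control mice (0.241%), of which 28 were tested in BACHD mice. Of these 26 had the same direction there and 8 were called, and their median absolute log2 fold change was 0.84 in BACHD mice and 1.18 in control mice. The 19 of 12676 genes called in BACHD mice alone (0.15%) all had the same direction in control mice, with a median absolute log2 fold change of 1.26 in BACHD mice and 0.77 in control mice. Over all 12439 genes tested in both, 59.1% had the same direction and the median absolute change was 0.18 in BACHD mice and 0.17 in control mice.

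**Figure D5:**
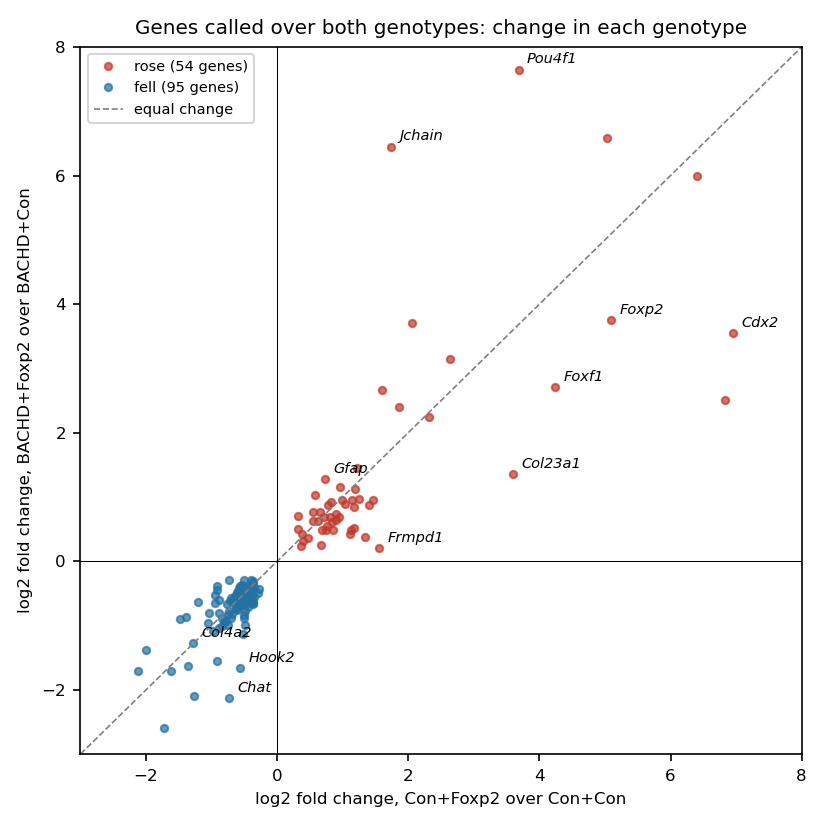
Log2 fold change of the 149 called genes in control mice (horizontal, Con+Foxp2 over Con+Con) and in BACHD mice (vertical, BACHD+Foxp2 over BACHD+Con), red for the 54 rises and blue for the 95 falls; the dashed line marks equal change. Points of Jchain and Pou4f1 lie above the line and those of Foxp2, Cdx2, Col23a1 and Frmpd1 below it.

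Whether the virus effect differed between the genotypes depended on the tool. With edgeR 0 of 13563 genes passed the interaction test (0%) and 516 had an unadjusted p under 0.05, where 678 would be expected by chance. DESeq2 called 4, Foxp2 (adjusted p = 0.000128), Pax7 (0.000916), Col23a1 (0.00134) and Cdh4 (0.0421), and edgeR without a filter on low counts called 3. Foxp2 had the lowest interaction p, with a log2 fold change of 3.75 in BACHD mice and 5.09 in control mice (edgeR, adjusted p of the interaction = 0.077). Col23a1 was at 21.5 ± 2.81 CPM in BACHD+Foxp2 and 8.42 ± 2.06 CPM in BACHD+Con, and at 126 ± 24.0 CPM in Con+Foxp2 and 10.2 ± 6.76 CPM in Con+Con (SD, n = 4 each, as for the genes that follow). The adjusted interaction p of Col23a1 was 0.362 with edgeR. Frmpd1, a scaffold protein that binds G protein modulators, was at 20.6 ± 3.41 CPM in BACHD+Foxp2 and 17.9 ± 2.75 CPM in BACHD+Con, and at 70.2 ± 8.85 CPM in Con+Foxp2 and 24.0 ± 9.29 CPM in Con+Con (edgeR, adjusted p of the interaction = 0.809). Its effect over both genotypes (log2 fold change 0.92, adjusted p = 0.0296) joined 0.20 in BACHD mice with 1.55 in control mice, and it kept its call in 8 of 16 fits that left out 1 mouse (up to 0.0815, without Con+Foxp2 mouse 3). In the opposite sense, Chat was at 4.30 ± 1.28 CPM in BACHD+Foxp2 and 19.0 ± 6.36 CPM in BACHD+Con, and at 8.73 ± 3.60 CPM in Con+Foxp2 and 14.6 ± 4.11 CPM in Con+Con (edgeR, adjusted p of the interaction = 1). Hook2 had a log2 fold change of -1.67 in BACHD mice and -0.57 in control mice (edgeR, adjusted p of the interaction = 1). Jchain was at 11.2 ± 5.37 CPM in BACHD+Foxp2 and 0.0964 ± 0.193 CPM in BACHD+Con, and at 12.2 ± 2.42 CPM in Con+Foxp2 and 3.62 ± 4.28 CPM in Con+Con (edgeR, adjusted p of the interaction = 1).

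The size and base composition of the called genes are given as a description, with no test. The median span in the genome was 22.4 kb for the rises, 54.4 kb for the falls and 26.5 kb over all genes tested. The median transcript length was 3787 bases for the rises, 4420 for the falls and 3548 over all, and the median GC content of the transcripts was 50.3%, 53.8% and 49.7%. Of the 53 annotated rises 52 were protein-coding, as were all 90 annotated falls and 12542 of the 13059 annotated genes tested. On chromosome 2 14 of 1039 tested genes fell (1.35%) and 4 rose (0.385%), and on chromosome 18, with the protocadherins, 10 of 375 rose (2.67%) and 3 fell (0.8%).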

How the data were processed

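Striatal RNA of 16 mice was sequenced after SMARTer library preparation, per the labels' protocols. STAR 2.4.0, HTSeq, DESeq2 and the build mm10 are named in the submitters' processing notes, and the deposited values are raw counts of reads per gene symbol, which the authors made for each library. No source used here states whether counting used strand, so overlapping and antisense genes are uncertain. The 5 lines of unassigned reads per library were left out; reads of no feature made up 38.7 to 43.4% of the listed reads and reads without a unique position 33.8 to 37.2%. Reads assigned to genes made up 22.5 to 24.7%. The chi-square per degree of freedom was at least 4.34 in each of the 120 pairs of libraries, so no library was a copy of another.

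Counts were filtered with filterByExpr over the 4 groups, scaled by TMM and fitted with edgeR 4.0.16 (R 4.3.3) as genotype plus virus, with quasi-likelihood tests on 13 residual degrees of freedom and adjustment over all 13563 genes. CPM are counts scaled to the library size, and log2 CPM used a prior count of 2. A further fit with 4 group means gave the effect in each genotype and the interaction. Alternatives were DESeq2 1.42.0, voom of limma 3.58.1, RLE scaling, other filters, other models and leaving out each mouse. A cortical and a choroid plexus covariate and the removal of 3 libraries were added after seeing the data. The main-effect fit was tested on simulated counts, in which the changed genes were all well above 0 and tissue content did not vary. That run does not bear on near-silent genes or on cortical content. The comparison and the gene lists were chosen with earlier results of these data known. Named genes were a fixed panel, the 12 largest rises and falls whose mean log2 CPM reached 1 and whose direction was the same in both genotypes, the 6 rises and 6 falls with the lowest p, up to 4 called genes per list and the 6 called genes with the lowest interaction p; genes named only as predicted or clone symbols were left out. A gene that this rule names is not reported here. Promoter windows are RefSeq's, on GRCm38.p6. Coordinates of genes are on GRCm38.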

Additional observations from a re-analysis of the deposited data

Results flagged for a closer look

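In 13 of 260 groups of 4 mice, 1 mouse stood apart from the other 3 by Dixon's criterion on log2 CPM. Chance alone would give at most about 13 (1 in 20), because groups with 4 equal values could not be flagged. The values below are CPM. Among rises, Pou4f1 was at 16.27 CPM in BACHD+Foxp2 mouse 4, where the other 3 were at 5.16 to 5.85 CPM. Rab3b was at 73.95 CPM in Con+Foxp2 mouse 2 (others 50.2 to 52.8) and at 34.1 CPM in Con+Con mouse 2 (others 26.8 to 27.1). Jun was at 78.28 CPM in BACHD+Foxp2 mouse 1 (others 97.6 to 99.8), and Pcdhb18 at 34.02 CPM in that mouse (others 24.2 to 25.2). Ctss was at 44.68 CPM in Con+Con mouse 3 (others 62.4 to 66.2). Among falls, Slc10a4 was at 0.688 CPM in BACHD+Foxp2 mouse 3 (others 2.95 to 3.66), and Dnttip1 at 79.27 CPM in BACHD+Con mouse 2 (others 73.5 to 73.9). The rest were genes near 0 under the control virus: Onecut3 at 0.295 CPM in Con+Con mouse 1, Cdx2 at 0.991 CPM in BACHD+Con mouse 2, Abca12 at 1.03 CPM in BACHD+Con mouse 1 and Jchain at 0.3854 CPM in BACHD+Con mouse 4, each with 0 in the other 3 mice of the group. Tex15 was at 0 CPM in BACHD+Con mouse 4 (others 0.991 to 1.03).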

How the results depend on the processing

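Against 149 genes called over both genotypes (54 rose, 95 fell), DESeq2 called 241 (102 rose), and without a filter on low counts 83 rose. Fitted alone, BACHD mice gave 19 calls (5 rose, 14 fell) and control mice 31 (18 rose, 13 fell), with fewer samples in each. With the cortical covariate 56 rose and 53 fell, and without the 3 libraries lowest in cortical markers, also a smaller sample, 68 were called (36 rose, 32 fell). Within BACHD mice DESeq2 called 66 and the unfiltered fit 53, against 33; within control mice 87 and 75, against 31; for the interaction 4 and 3, against 0. Leaving out 1 mouse at a time gave 101 to 190 calls, 44 to 76 rises and 55 to 114 falls over both genotypes, 9 to 32 calls in BACHD mice, 10 to 46 in control mice and 0 to 1 for the interaction, and 90 of the 149 were called in all 16 such fits. The main calls that were tested kept their direction in each alternative run, but each run reused libraries from which these calls were chosen. Of the named genes, Penk alone changed sign, at 0.0084 with the cortical covariate, and was called in no fit. Except where stated, the cause of these differences was not tested. The labels number the libraries 1 to 4 in each group, but same-numbered libraries did not deviate together: correlations of the 24 pairs ran from -0.168 to 0.102 and 1 library matched its own number best. With the replicate block 134 genes were called, 128 of them among the 149. At a median of 3014099.5 gene reads a library, 3 reads correspond to 0.819 to 1.16 CPM, which limits genes near that level.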
